A study of Mus musculus with 10 samples.

Results

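The shift from the acute to the subacute stage after status epilepticus (SE) was described here in mice that received no levetiracetam (LEV), by comparing 2 mice at 2 days after pilocarpine (PILO)-induced SE (SE 2 days) with 2 mice at 6 h (SE 6 h). These are 4 of the 10 libraries of the series, chosen by their labels alone, and the comparison asks what fades and what emerges in the hippocampus between these stages. The series measured RNA of the whole hippocampus by cap analysis of gene expression (CAGE), which captures and counts the 5′ ends of capped RNAs, so that each tag marks a transcription start. Its other 6 libraries are from pre-SE mice (2), SE + LEV 6 h (2) and SE + LEV 2 days (2). All animals were male ICR mice, an outbred stock, and were young adults when PILO was given. Both groups compared received methyl scopolamine, which blocks the peripheral effects of PILO, then PILO intraperitoneally, and had their SE ended with diazepam. The pre-SE mice are labelled untreated, and the LEV groups received LEV by mouth after SE in addition to what the SE groups received. The paper calls pre-SE mice naive, while its methods give control mice saline in place of PILO. Each time point is a different set of animals, so no mouse was followed over time. Each group has only 2 mice, and error was estimated jointly from the spread within groups over all 10 libraries.

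After prolonged seizures, hippocampal neurons first switch on immediate-early and activity-regulated genes, many of them through the transcription factor CREB, which binds the cAMP response element. Stressed cells raise heat shock proteins, which refold or hold damaged proteins. Over the following days, microglia, the resident macrophages of the brain, proliferate and take up debris, astrocytes become reactive and fill with intermediate filaments, and an innate interferon response can appear, in which interferon receptors switch on antiviral genes through the interferon-stimulated response element.

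The 4 libraries held an estimated 31178064 and 14594579 tags at 6 h and 23585359 and 20937023 at 2 days, against 10540698 to 51710968 over all 10, and the limit of detection used here, 3 tags in a library, came to 0.096 to 0.206 CPM, the share of tags scaled to a common total. The neuronal marker *Snap25*, a protein of synaptic vesicle fusion, was at 2898 and 1993 CPM at 6 h and 1621 and 1561 CPM at 2 days, and *Gad1*, the GABA-synthesizing enzyme, at 216 and 282 CPM at 6 h and 178 and 288 CPM at 2 days; both defining markers were present in every mouse. SE 6 h mouse 2 stood apart in markers of the choroid plexus, which borders the hippocampus. *Ttr*, the transthyretin gene of the choroid plexus, had 4.33 and 3936 CPM in mice 1 and 2 of SE 6 h, against 55.6 and 13.5 CPM at 2 days. The summed level of the 8 choroid plexus genes tested was 89.5 and 4887 CPM at 6 h and 126 and 74 CPM at 2 days, none of the 8 passed the test, and their median logFC was -1.31. Sums were also high in 1 mouse of the pre-SE group and of both LEV groups, with 2179 CPM in pre-SE mouse 2, 1349 CPM in SE + LEV 6 h mouse 1 and 1816 CPM in SE + LEV 2 days mouse 1, against 106 to 126 CPM in the other mouse of each. The part of this difference in the results was not tested beyond leaving that mouse out, as given below.

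Between 6 h and 2 days, 674 of the 15851 genes tested (4.25%) passed the threshold of an adjusted p of at most 0.05 in limma, 498 of them higher (3.14%) and 176 lower (1.11%) at 2 days; an unadjusted p under 0.05 was reached by 2026 higher (12.8%) and 1155 lower (7.29%). The logFC, the log2 ratio of 2 days over 6 h on the log2(CPM + 0.1) scale, is given below with its standard error. Its median was 2.49 over the genes called higher, -1.84 over those called lower and 0.09 over all genes tested. Genes called higher had median levels of 1.73 CPM before SE, 1.62 CPM at 6 h and 11.8 CPM at 2 days. Genes called lower had medians of 13.3, 48.9 and 14.4 CPM, from which single genes departed. At 2 days *Maff* was still above both pre-SE mice and *Dio2* below both. Both sets were picked by these same 6-h and 2-day mice, so their distance from pre-SE is partly built in. Against pre-SE, the median logFC of the genes called higher was -0.24 at 6 h and 2.36 at 2 days, and that of the genes called lower 1.71 at 6 h and -0.09 at 2 days. All 4 mice enter these calls, and without any one of them 116 to 147 genes were called higher and 42 to 46 lower. Without SE 6 h mouse 2, the library of these 4 with the high choroid plexus sum, the counts were 147 higher and 42 lower, of which 140 and 32 were among the calls with all mice.

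**Figure D1:**
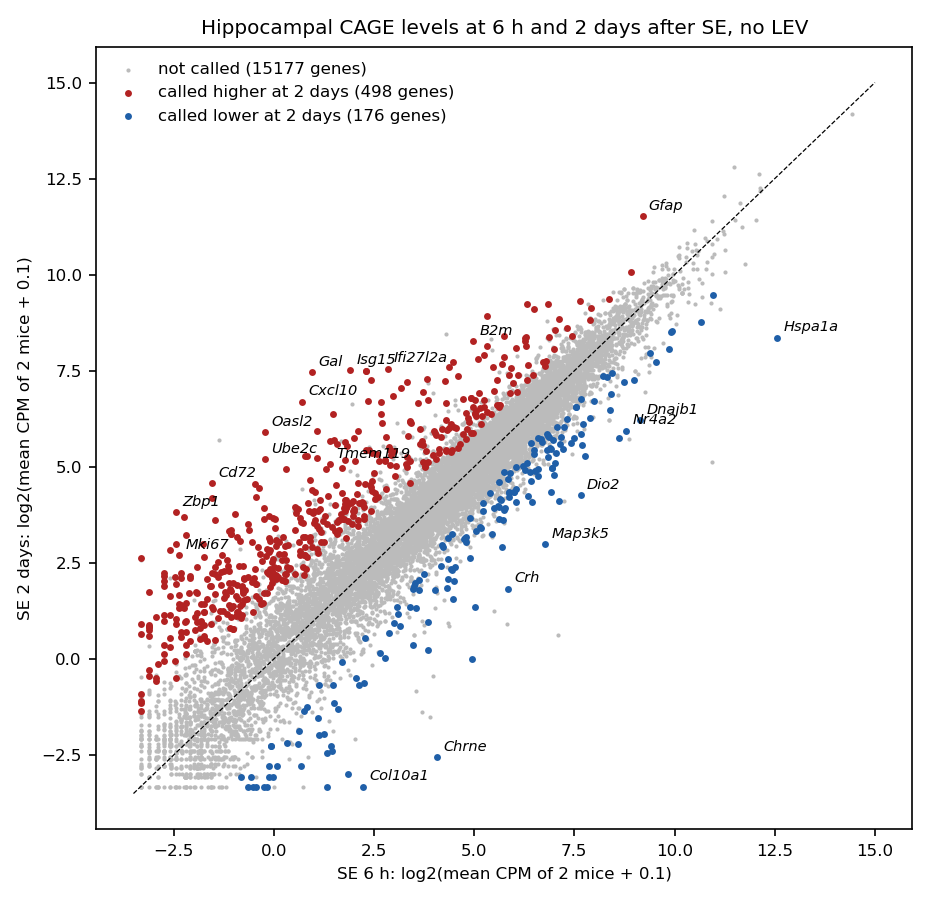
Level of each of the 15851 genes tested at 6 h (x axis) and at 2 days (y axis) after SE, as log2(mean CPM of 2 mice + 0.1); red, 498 genes called higher at 2 days; blue, 176 genes called lower; the dashed line marks equal levels. Most red genes lie at low levels at 6 h, and *Hspa1a* is the most abundant of the labelled blue genes.

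Several heat shock genes, abundant at 6 h, fell by 2 days. Of 16 heat shock and protein folding genes tested, 5 fell and 0 rose (median logFC = -0.52). *Hspa1a* (ENSMUSG00000091971, chr17:35106144-35109069, minus strand; this and the other gene positions are in mm9), the inducible 70-kDa chaperone, was at 47.6 and 41.5 CPM before SE, 10861 and 1278 CPM at 6 h and 126 and 533 CPM at 2 days. Both mice at 2 days were below both at 6 h (logFC = -3.85 ± 0.89, adjusted p = 0.04), a mean level 18.4 times higher at 6 h, although the SE 6 h mice differed widely from each other. The *Hspa1a* call was lost without the mean-variance trend and when only the 2 groups compared were fitted. *Dnajb1*, a co-chaperone that delivers clients to Hsp70, was at 728 and 399 CPM at 6 h and 65.5 and 82.1 CPM at 2 days, without overlap (logFC = -2.88 ± 0.34, adjusted p = 0.0028), and at 2 days was close to its 58.5 and 71.4 CPM before SE. *Hsp90aa1*, the stress-inducible Hsp90, fell from 1159 and 717 to 305 and 229 CPM (logFC = -1.79 ± 0.34, adjusted p = 0.017), and *Dnaja1*, another Hsp70 co-chaperone, from 1088 and 856 to 348 and 392 CPM (logFC = -1.38 ± 0.26, adjusted p = 0.018). *Hspa1b*, a near-identical neighbour of *Hspa1a* with which it can share tags, fell from 36.2 and 8.09 to 2.42 and 3.3 CPM (logFC = -2.56 ± 0.62, adjusted p = 0.048). *Hsph1* (3806 and 692 CPM at 6 h, 468 and 628 CPM at 2 days) and *Hspa8* (2997 and 834 and 575 and 662 CPM) did not pass the test (adjusted p = 0.2 and 0.19). SE 6 h mouse 1 had the higher level of each of these 7 genes at 6 h; without it, *Dnajb1* alone of the 5 remained called, and *Hspa1a* had a logFC of -2.30 (adjusted p = 0.19). Of the 5 calls, 1 also remained without SE 2 days mouse 1 or SE 2 days mouse 2, and 4 remained without SE 6 h mouse 2; those of *Hspa1a* and *Hspa1b* were lost with the replicate block.

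Activity-regulated transcription factors mostly declined in estimate, and few passed the test. Of 26 tested, 23 had a negative logFC (median -0.99), 4 fell and 0 rose. *Nr4a2*, an orphan nuclear receptor induced by activity, was at 41.3 and 99.2 CPM before SE, 368 and 519 CPM at 6 h and 74 and 49 CPM at 2 days. It had returned to the range of the pre-SE mice, and both 2-day mice lay below both 6-h mice (logFC = -2.86 ± 0.54, adjusted p = 0.017). *Klf4*, a Krüppel-like factor, fell from 31.1 and 28 to 4.54 and 7.69 CPM (logFC = -2.30 ± 0.38, adjusted p = 0.0091), and *Crem*, whose ICER product represses CREB targets, from 104 and 127 to 29.9 and 46.9 CPM (logFC = -1.62 ± 0.34, adjusted p = 0.028). *Maff*, a small Maf protein without a transactivation domain, fell from 46 and 40.8 to 10.3 and 8.6 CPM (logFC = -2.19 ± 0.48, adjusted p = 0.034) and still stood far above its 1.03 and 0.52 CPM before SE. The family as a whole had not returned to baseline, since its median logFC against pre-SE was 3.09 at 6 h and 2.34 at 2 days. *Fosb*, an AP-1 subunit, was at 586 and 645 CPM at 6 h and 76.5 and 171 CPM at 2 days without overlap, yet did not pass the test (logFC = -2.43 ± 0.69, adjusted p = 0.084). Without SE 6 h mouse 1, SE 6 h mouse 2 or SE 2 days mouse 1, none of the 4 calls remained, and 1 remained without SE 2 days mouse 2.

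Some members stayed induced at 2 days. *Fosl1*, the AP-1 subunit that the study follows, was at 0.03 and 0.02 CPM before SE, 10.7 and 13.2 CPM at 6 h and 6.78 and 24.2 CPM at 2 days. The 2-day mice lay on either side of the 6-h mice (logFC = 0.11 ± 0.79, adjusted p = 0.95), and the gene was above pre-SE at both times, with logFC values of 6.58 at 6 h (adjusted p = 0.003) and 6.69 at 2 days (adjusted p = 0.0014). *Atf3*, a stress-induced factor of the ATF/CREB family, likewise overlapped between the times, with 67.5 and 59.5 CPM at 6 h and 17.6 and 82 CPM at 2 days (logFC = -0.74 ± 0.91, adjusted p = 0.69), and against pre-SE its logFC was 6.63 at 6 h (adjusted p = 0.005) and 5.90 at 2 days (adjusted p = 0.0048). *Fosl1* and *Atf3* were chosen after their values were seen.

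Of 27 activity-regulated effector genes tested, 3 fell and 0 rose, and 21 had a negative logFC (median -0.70). *Pcsk1*, the prohormone convertase that cleaves neuropeptide precursors, fell from 145 and 154 to 23.3 and 64.6 CPM (logFC = -1.94 ± 0.42, adjusted p = 0.031). *Sik1*, a salt-inducible kinase that restrains CREB coactivators, fell from 224 and 133 to 39.1 and 69.4 CPM (logFC = -1.72 ± 0.39, adjusted p = 0.039), and *Gadd45b*, a stress sensor linked to DNA demethylation, from 67.9 and 87.3 to 18.4 and 41.5 CPM (logFC = -1.48 ± 0.36, adjusted p = 0.048). The groups did not overlap for any of the 3. *Inhba*, which encodes the activin A subunit, had a large estimate and was not called. It was at 972 and 461 CPM at 6 h and 47.7 and 499.9 CPM at 2 days, so that SE 2 days mouse 2 lay between the 6-h mice (logFC = -2.12 ± 0.85, adjusted p = 0.2). *Homer1*, a postsynaptic scaffold, was at 1214 and 916 CPM at 6 h and 151 and 836 CPM at 2 days, with the 2-day mice below but far apart from each other, and was not called either (adjusted p = 0.26). None of the 3 calls remained without SE 6 h mouse 1, SE 6 h mouse 2 or SE 2 days mouse 1, and 2 remained without SE 2 days mouse 2.

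The cAMP response element was found in promoters of several fading genes; these shares are given as a description, and a match is not evidence of binding. Its letters, TGACGTCA, which read the same on both strands, occurred in 16 of the 104 genes called lower that have a promoter in the RefSeq table (15.4%), in 9 of 315 genes called higher (2.86%) and in 364 of all 10085 genes tested with a promoter (3.61%), against 1.79% of all 32851 promoters in the table. The table gives 250 bases before and 50 bases after each annotated start. Among the 16 were *Dio2*, *Pcsk1*, *Maff*, *Errfi1*, *Ppp1r15a* and *Creb5*. The AP-1 letters TGANTCA were in 6.73% of the genes called lower and 6.13% of all genes tested. The 150 bases before the start of *Dio2*, the fading gene with the largest change among the 16, and of *Pcsk1* are shown because both carry 1 complete element, printed in capitals, 95 and 78 bases before the start (GRCm38.p6, 5′ to 3′).
Dio2 (chr12:90739039-90739188, minus strand): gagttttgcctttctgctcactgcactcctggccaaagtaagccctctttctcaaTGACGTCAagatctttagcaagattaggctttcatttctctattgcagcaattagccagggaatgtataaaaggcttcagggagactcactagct
Pcsk1 (chr13:75089707-75089856, plus strand): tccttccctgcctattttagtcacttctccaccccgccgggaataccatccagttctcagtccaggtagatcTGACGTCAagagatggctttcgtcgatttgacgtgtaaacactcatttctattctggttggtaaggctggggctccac

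*Dio2* (ENSMUSG00000007682, chr12:91962994-91976878, minus strand) encodes type II deiodinase, which converts thyroxine to active thyroid hormone and in the brain is made mainly by astrocytes. It was at 80.2 and 44.2 CPM before SE, 149.9 and 253 CPM at 6 h and 18.5 and 19.7 CPM at 2 days. The 2-day mice nearly coincided and lay below every pre-SE and 6-h mouse (logFC = -3.34 ± 0.45, adjusted p = 0.0045); the gene overlaps Gm16738 on the other strand. *Map3k5* (ENSMUSG00000071369, chr10:19654278-19862559, plus strand), the kinase ASK1 at the head of the stress-activated JNK and p38 cascades, was at 16.1 and 10.6 CPM before SE, 89.7 and 128 CPM at 6 h and 8.69 and 7.07 CPM at 2 days. It was 13.8 times higher at 6 h, without overlap (logFC = -3.76 ± 0.38, adjusted p = 0.002). *Zfp184* (ENSMUSG00000006720, chr13:22036981-22052648, plus strand), a zinc finger gene within the histone cluster of chromosome 13, was at 1.24 and 1.47 CPM before SE, 13.7 and 14.9 CPM at 6 h and 1.06 and 1.1 CPM at 2 days. Its replicates agreed closely at each time (logFC = -3.61 ± 0.35, adjusted p = 0.0017), and 3 predicted genes overlap it on the other strand. These 3 calls remained without each mouse in turn, as did that of *Trmt61b*, annotated here as a lincRNA, which fell from 111 and 165 to 15.1 and 19.5 CPM (logFC = -2.97 ± 0.31, adjusted p = 0.0023).

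The largest fall of all belonged to a gene of muscle. *Chrne* (ENSMUSG00000014609, chr11:70428385-70432718, minus strand), the epsilon subunit of the adult muscle acetylcholine receptor, was at 0.21 and 0.1 CPM before SE, 16.4 and 16.9 CPM at 6 h and 0.04 and 0.1 CPM at 2 days. Both 6-h mice stood near 16 to 17 CPM, whereas the 2-day mice were at or under the limit of detection (logFC = -6.65 ± 0.77, adjusted p = 0.0028). *Col10a1*, a collagen of growth plate cartilage, was at 6.96 and 2.26 CPM at 6 h and at 0 in both pre-SE and both 2-day mice, at least 34.1-fold higher at 6 h when 0 is replaced by 3 tags in each library (logFC = -5.35 ± 0.75, adjusted p = 0.0054). *Abra*, an actin-binding protein of muscle, was at 0.93 and 3.91 CPM at 6 h and 0 in both 2-day mice, at least 17.9-fold higher at 6 h (logFC = -4.35 ± 0.63, adjusted p = 0.0061), and *Asb5*, an ankyrin repeat gene of muscle, at 1.38 and 5.69 and 0 and 0.05 CPM (logFC = -4.58 ± 0.77, adjusted p = 0.01). *Chrne*, *Col10a1* and *Asb5* overlap 4930544D05Rik, *Nt5dc1* and 5330439A09Rik on the other strand, and whether tags were counted by strand is not given in the sources used here, so these tags cannot be assigned to one gene of a pair. The calls of *Chrne* and *Col10a1* remained without each mouse in turn, that of *Abra* was lost without SE 2 days mouse 2 (adjusted p = 0.05), and that of *Asb5* without SE 6 h mouse 2 (logFC = -3.60, adjusted p = 0.08), SE 2 days mouse 1 (logFC = -4.29, adjusted p = 0.087) or SE 2 days mouse 2 (logFC = -4.87, adjusted p = 0.062).

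Neuropeptides moved in both directions: of 14 tested, 3 fell, 1 rose and 10 were not called (median logFC = -0.32). *Crh*, corticotropin-releasing hormone, made in the hippocampus by interneurons, was at 5.72 and 3.27 CPM before SE, 46.3 and 69.2 CPM at 6 h and 1.61 and 5.3 CPM at 2 days. Its mean was 16.7 times higher at 6 h and the groups did not overlap (logFC = -4.22 ± 0.57, adjusted p = 0.0047), a call that remained without each mouse. *Tac1*, the precursor of substance P, fell from 15.9 and 24.9 to 3.77 and 4.49 CPM (logFC = -2.25 ± 0.42, adjusted p = 0.016), and *Nts*, neurotensin, from 14.6 and 31.5 to 5.55 and 4.78 CPM (logFC = -2.04 ± 0.39, adjusted p = 0.018); both ended within or near the range of the pre-SE mice. *Gal*, galanin, a peptide that inhibits glutamate release, rose from 1.57 and 2.12 to 17 and 334 CPM (logFC = 5.30 ± 1.27, adjusted p = 0.046). The 2 mice at 2 days differed by a wide margin, and the call was lost without SE 6 h mouse 1 (adjusted p = 0.19), SE 6 h mouse 2 (0.16) or SE 2 days mouse 2 (logFC = 3.15, adjusted p = 0.24) and under 6 of the 9 alternatives that keep all mice. *Penk*, proenkephalin, at 34.3 and 51.7 CPM at 6 h and 132 and 509.7 CPM at 2 days, and *Npy*, neuropeptide Y, at 125 and 101 and 179 and 711 CPM, were higher in both 2-day mice without passing the test (adjusted p = 0.073 and 0.15).

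A few fading genes came from other lists; over all genes tested, 1.11% were called lower. Among endothelial genes, *Cdh5*, the cadherin of endothelial junctions, fell from 17.6 and 19.5 to 7.04 and 7.74 CPM (logFC = -1.31 ± 0.30, adjusted p = 0.039), 1 of 19 tested, and *Edn1*, the vasoconstrictor endothelin, from 13.7 and 10.8 to 3.52 and 3.25 CPM (logFC = -1.82 ± 0.40, adjusted p = 0.035), 1 of 10 activation genes tested. *Angpt2*, which destabilizes vessels, was at 5.45 and 15 CPM at 6 h and 2.04 and 2.01 CPM at 2 days and lay just outside the threshold. Of 26 genes of the extracellular matrix and its proteases, 2 fell and 3 rose; *Plat*, tissue plasminogen activator, fell from 76.2 and 71.8 to 27.6 and 37.6 CPM (logFC = -1.20 ± 0.27, adjusted p = 0.038) and *Adamts4*, an aggrecanase, from 34.6 and 36.7 to 8.44 and 12.6 CPM (logFC = -1.78 ± 0.43, adjusted p = 0.049). Of 17 targets of the integrated stress response and p53, *Ppp1r15a*, which restores translation by dephosphorylating eIF2α, fell from 60.3 and 55.8 to 20.7 and 19.9 CPM (logFC = -1.51 ± 0.34, adjusted p = 0.036) and *Pmaip1*, the BH3-only protein Noxa, from 20.1 and 20.4 to 7.76 and 4.25 CPM (logFC = -1.80 ± 0.44, adjusted p = 0.049), whereas *Bax*, the pore-forming apoptosis effector, rose from 48 and 50.1 to 90.9 and 96.3 CPM (logFC = 0.93 ± 0.22, adjusted p = 0.047). *Errfi1*, a feedback inhibitor of the EGF receptor listed among 12 glucocorticoid targets, fell from 718 and 766 to 130.1 and 292 CPM (logFC = -1.93 ± 0.44, adjusted p = 0.039) and was the only one of them called. Each of these 7 falls and the rise of *Bax* was lost without 3 or more of the 4 mice taken out in turn.

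Interferon-stimulated genes emerged as a block. All 32 tested had a higher estimate at 2 days and non-overlapping mice, against 31% of all genes tested with both 2-day mice above both 6-h mice, and 29 of the 32 rose (90.6%). Their median logFC was 3.60, and against pre-SE it was 0.27 at 6 h and 4.07 at 2 days. Their summed level was 65.3 and 72.6 CPM at 6 h, close to the 59.2 and 69.5 CPM before SE, and 1424 and 674 CPM at 2 days. SE 2 days mouse 1 had the higher sum of the pair, and the list median was 4.69 without SE 2 days mouse 2 and 2.90 without SE 2 days mouse 1. With each mouse left out in turn, 13 to 25 of the 29 calls remained, and 12 remained in every case.

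*Isg15* (ENSMUSG00000035692, chr4:155573533-155574927, minus strand), which encodes a ubiquitin-like antiviral modifier, was at 1.17 and 1.51 CPM before SE, 3.75 and 3.56 CPM at 6 h and 276 and 88.7 CPM at 2 days. Every 2-day mouse was far above every 6-h mouse (logFC = 5.38 ± 0.48, adjusted p = 0.0017), a mean 49.9 times higher. *Zbp1*, a sensor of Z-form nucleic acids that can trigger necroptosis, had the largest rise of all genes named, from 0.03 and 0.14 to 18.7 and 9.22 CPM (logFC = 6.23 ± 0.73, adjusted p = 0.0028). *Oasl2*, of the oligoadenylate synthetase family, rose from 0.83 and 0.69 to 90.4 and 29.1 CPM (logFC = 5.91 ± 0.54, adjusted p = 0.0017), and *Usp18*, which removes ISG15 and damps interferon signalling, from 0.35 and 0.14 to 28.1 and 8.22 CPM (logFC = 5.54 ± 0.65, adjusted p = 0.0028). Signalling factors of the response rose as well: *Irf7*, the inducible master regulator of type I interferon, from 1.96 and 2.06 to 83.3 and 38.7 CPM (logFC = 4.75 ± 0.41, adjusted p = 0.0017), *Irf9* from 2.12 and 1.78 to 26.6 and 13.5 CPM (logFC = 3.22 ± 0.54, adjusted p = 0.011) and *Stat2* from 10 and 9.66 to 50.2 and 26.2 CPM (logFC = 1.87 ± 0.37, adjusted p = 0.021). *Ifi27l2a* had nearly equal levels in the 2-day mice, 186 and 190.1 CPM, against 5.07 and 9.04 CPM at 6 h (logFC = 4.78 ± 0.58, adjusted p = 0.0031), and overlaps *Ifi27l2b* on the same strand. The 3 members not called were *Oasl1* (logFC = 2.62, adjusted p = 0.061), *Gbp2* (1.45, 0.11) and *Cmpk2* (1.18, 0.15), and *Cmpk2* at 2 days was at 17.7 and 6.97 CPM, near its 12.3 and 10.7 CPM before SE.

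Promoter letters of the interferon genes are given as a description, since the list was chosen as interferon-stimulated. The core of the interferon-stimulated response element, GAAANNGAA on either strand, was present in 13 of the 22 list members with a RefSeq promoter (59.1%). It was in 853 of all 10085 genes tested with one (8.46%) and 8.56% of all promoters in the table. Among called genes it was in 55 of 315 higher (17.5%) and 13 of 104 lower (12.5%). Among activity-regulated genes it was in 4 of 20 transcription factors (20%) and 4 of 18 effectors (22.2%). The AP-1 letters were in 6 of the 22 interferon genes (27.3%), against 6.13% of all genes tested. *Isg15* and *Ifit1* are shown because each has 3 matches, of which all 3 overlap in *Isg15* and 2 in *Ifit1*; the matches are in capitals, start 66 to 109 bases before the annotated start, and in *Ifit1* lie on the opposite strand (GRCm38.p6, 150 bases before the start, 5′ to 3′).
Isg15 (chr4:156200819-156200968, minus strand): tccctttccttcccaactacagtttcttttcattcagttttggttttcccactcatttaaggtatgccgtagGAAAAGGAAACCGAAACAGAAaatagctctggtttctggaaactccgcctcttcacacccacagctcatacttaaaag
Ifit1 (chr19:34640739-34640888, plus strand): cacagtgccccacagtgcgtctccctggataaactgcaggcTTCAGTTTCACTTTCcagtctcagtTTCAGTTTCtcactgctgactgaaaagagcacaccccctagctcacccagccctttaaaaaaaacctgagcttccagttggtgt

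*Ifit1*, which binds viral RNA lacking a methylated cap, was at 0.21 and 0.43 CPM before SE, 1.25 and 1.03 CPM at 6 h and 50.1 and 11.5 CPM at 2 days. It was called (logFC = 4.29 ± 0.63, adjusted p = 0.0062), with SE 2 days mouse 1 above mouse 2 as for most of the list. Genes of MHC class I presentation, many of which respond to interferon, rose with them: 10 of 13 tested were called and 0 fell (median logFC = 1.65). *B2m*, the light chain of class I molecules, rose from 37 and 26 to 334 and 286 CPM (logFC = 3.31 ± 0.76, adjusted p = 0.039), and *H2-K1*, a classical heavy chain whose tags can be shared with its paralogs, from 31.6 and 43.7 to 225 and 254 CPM (logFC = 2.68 ± 0.39, adjusted p = 0.0062). The immunoproteasome subunits *Psmb8* and *Psmb9*, which trim peptides for class I, rose from 2.73 and 4.11 to 57.5 and 35.2 CPM (logFC = 3.71 ± 0.43, adjusted p = 0.0028) and from 0.42 and 0.34 to 12 and 6.97 CPM (logFC = 4.27 ± 0.41, adjusted p = 0.0017). *Psmb9* overlaps *Tap1*, the peptide transporter, on the other strand. Of these 10 calls, 2 to 3 remained when a mouse was left out, and only *Psmb8* and *Psmb9* in every case.

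**Figure D2:**
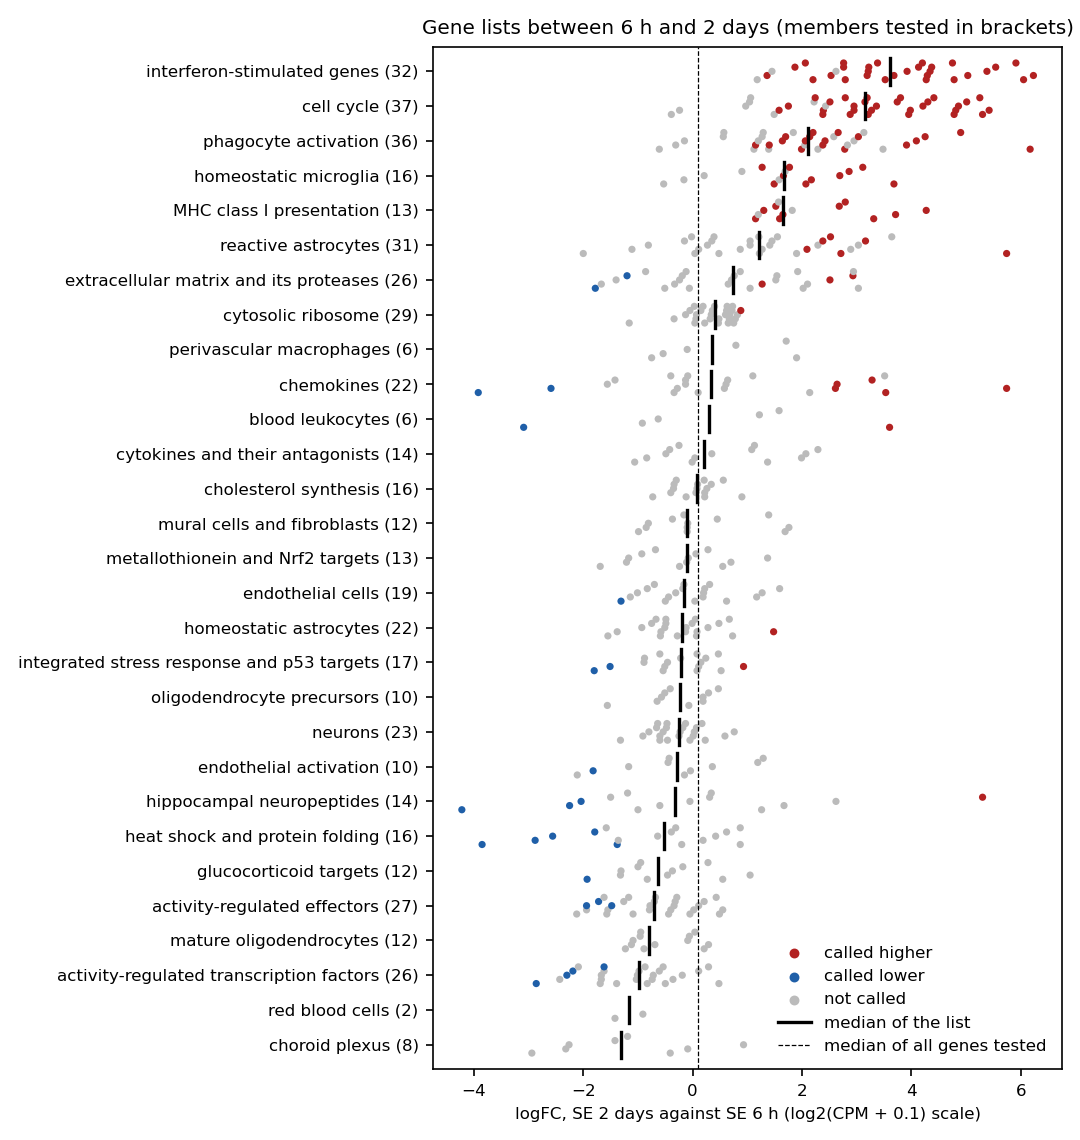
logFC of SE 2 days against SE 6 h for each tested member of the 29 gene lists (points), with the list median (thick line) and the median of all genes tested, 0.09 (dashed line); red, called higher; blue, called lower; grey, not called. Interferon-stimulated and cell cycle genes lie furthest to the right, with medians of 3.60 and 3.15, and heat shock and activity-regulated genes hold several of the blue points.

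Cell cycle genes formed the other large block that emerged. Of 37 tested, 29 rose and 0 fell (78.4% higher, median logFC = 3.15). Their summed level was 176 and 243 CPM at 6 h and 422 and 524 CPM at 2 days, and against pre-SE their median logFC was -0.37 at 6 h and 2.99 at 2 days. *Mki67* (ENSMUSG00000031004, chr7:142881471-142908062, minus strand), the proliferation marker Ki-67, was at 0.41 and 0.64 CPM before SE, 0.19 and 0 CPM at 6 h and 5.64 and 7.26 CPM at 2 days. The 6-h mice were at or near the limit of detection and below both pre-SE mice (logFC = 5.25 ± 0.63, adjusted p = 0.0031 for 2 days against 6 h). *Ccnb2*, a mitotic cyclin, rose from 0.06 and 0.07 to 6.19 and 7.88 CPM (logFC = 5.42 ± 0.55, adjusted p = 0.002), *Cdk1*, the mitotic kinase, from 0.35 and 0.41 to 9.03 and 11.3 CPM (logFC = 4.41 ± 0.49, adjusted p = 0.0027), and *Top2a*, the topoisomerase that resolves replicated DNA, from 0.42 and 0.69 to 8.69 and 11.5 CPM (logFC = 3.98 ± 0.44, adjusted p = 0.0028). *Birc5*, survivin, a subunit of the chromosomal passenger complex, rose from 0.67 and 0.69 to 20.2 and 23.6 CPM (logFC = 4.81 ± 0.50, adjusted p = 0.0021). Genes of S phase also rose, *Tk1*, thymidine kinase, from 0.03 and 0 to 2.84 and 3.63 CPM (logFC = 4.86 ± 0.52, adjusted p = 0.0024), *Mcm6*, of the replicative helicase, from 7.31 and 6.3 to 34.4 and 37.2 CPM (logFC = 2.38 ± 0.46, adjusted p = 0.019), *Tyms*, thymidylate synthase, from 3.56 and 3.43 to 12.7 and 11.3 CPM (logFC = 1.75 ± 0.42, adjusted p = 0.046), and *Ccne2*, a G1/S cyclin, from 3.85 and 3.63 to 11.7 and 11 CPM (logFC = 1.58 ± 0.35, adjusted p = 0.037). With a mouse left out, 13 to 17 of the 29 calls remained, and 12 in every case.

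The cell cycle homology region, TTTGAA on either strand, through which the DREAM complex holds mitotic genes silent in resting cells, occurred in 13 of the 30 cell cycle genes with a RefSeq promoter (43.3%), against 1379 of all 10085 genes tested with one (13.7%). It was also in 85 of 315 genes called higher (27%) and in 24 of 104 genes called lower (23.1%), and in 17.9% of all promoters in the table. *Cdk1*, with 2 matches, and *Cdc20*, the activator of the anaphase-promoting complex, with 1 match 18 bases before the start, are shown with the matches in capitals (GRCm38.p6, 150 bases before the start, 5′ to 3′). *Cdc20* rose from 1.25 and 1.44 to 10.8 and 20 CPM (logFC = 3.36 ± 0.49, adjusted p = 0.0061).
Cdk1 (chr10:69352913-69353062, minus strand): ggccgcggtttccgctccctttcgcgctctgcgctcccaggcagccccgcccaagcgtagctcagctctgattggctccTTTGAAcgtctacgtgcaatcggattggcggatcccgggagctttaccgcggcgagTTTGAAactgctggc
Cdc20 (chr4:118437344-118437493, minus strand): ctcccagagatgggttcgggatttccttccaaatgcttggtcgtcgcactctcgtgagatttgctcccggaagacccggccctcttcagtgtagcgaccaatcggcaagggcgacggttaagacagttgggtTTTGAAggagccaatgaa

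Microglial genes rose as well, including those that mark resting microglia. Of 16 homeostatic microglial genes tested, 10 rose and 0 fell (62.5% higher, median logFC = 1.67). In whole tissue, fewer cells of a type and less RNA per cell cannot be told apart. *Tmem119*, a membrane protein specific to microglia, was at 14.1 and 15.5 CPM before SE, 2.21 and 2.88 CPM at 6 h and 36.4 and 30.8 CPM at 2 days. It was lower at 6 h than before SE in both mice and 13.2 times higher at 2 days than at 6 h (logFC = 3.68 ± 0.34, adjusted p = 0.0017), and against pre-SE its logFC was -2.50 at 6 h (adjusted p = 0.0048) and 1.18 at 2 days (adjusted p = 0.073). *P2ry12*, the purinergic receptor that guides microglial processes, took a different course: 41.5 and 26.9 CPM before SE, 6.51 and 5.14 CPM at 6 h and 18.1 and 16.9 CPM at 2 days. It was higher in both 2-day mice than in both 6-h mice but did not pass the test (logFC = 1.58 ± 0.42, adjusted p = 0.07), and at 2 days it was still below both pre-SE mice. *Csf1r*, the receptor for the microglial survival factors, rose from 48.4 and 41.7 to 123 and 129.7 CPM (logFC = 1.49 ± 0.23, adjusted p = 0.0078), and *Cx3cr1*, the fractalkine receptor, from 13.4 and 6.51 to 32.1 and 31.9 CPM (logFC = 1.77 ± 0.35, adjusted p = 0.021). *Siglech*, at 7.02 and 8.29 CPM at 6 h and 8.86 and 3.1 CPM at 2 days, was not called (logFC = -0.53 ± 0.65, adjusted p = 0.68). With a mouse left out, 2 to 5 of the 10 calls remained, and only *Tmem119* in every case.

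**Figure D3:**
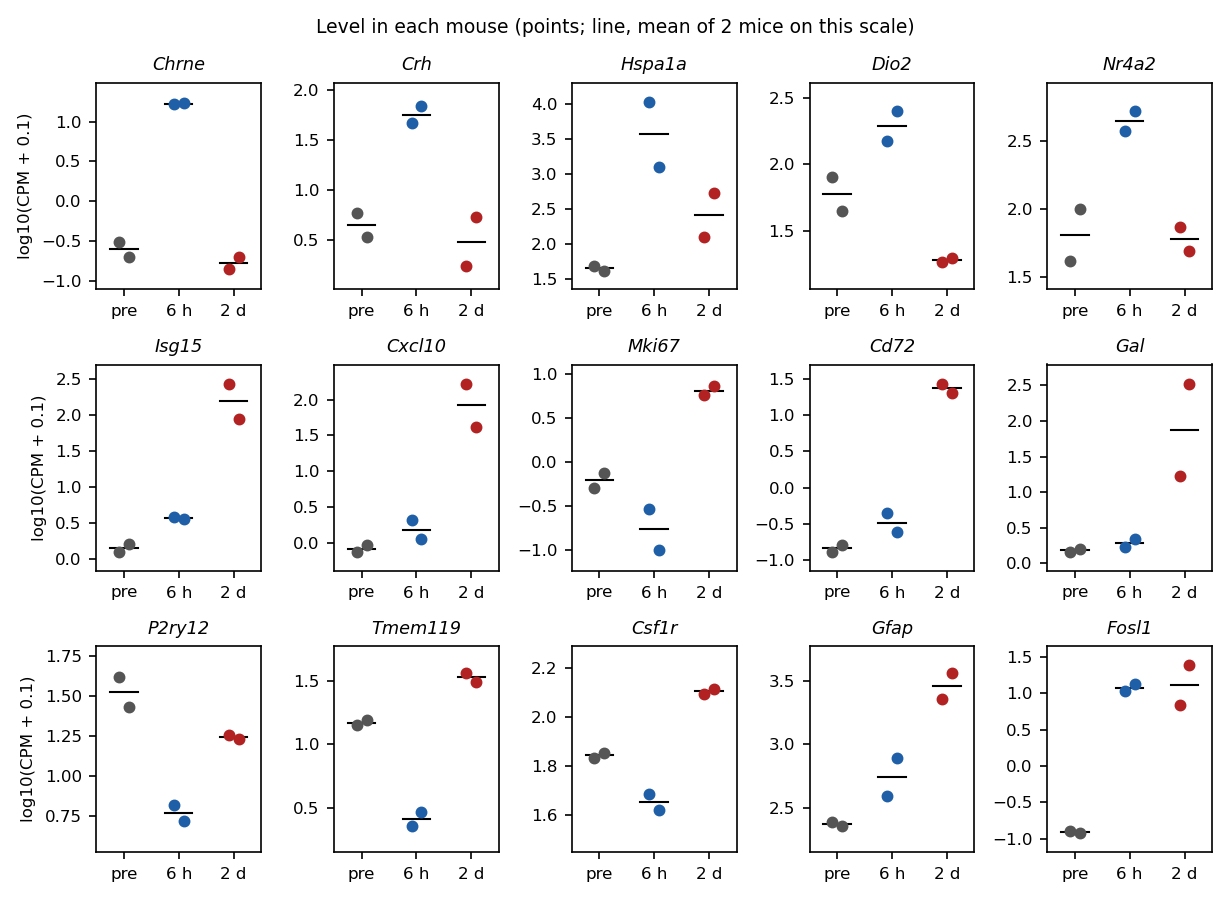
Level of 15 genes in each mouse before SE (grey), at 6 h (blue) and at 2 days (red), as log10(CPM + 0.1) with the mean of 2 mice (line); each panel has its own axis. The top row peaks at 6 h, the second row at 2 days, and *P2ry12*, *Tmem119* and *Csf1r* dip at 6 h, *P2ry12* to 6.51 and 5.14 CPM from 41.5 and 26.9 CPM.

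Of 36 genes of phagocyte activation, 18 rose and 0 fell (50% higher, median logFC = 2.10). Their summed level overlapped between the times, with 5777 and 4896 CPM at 6 h and 5369 and 7222 CPM at 2 days, against 7269 and 5415 CPM before SE. *Cd72*, a lectin-like receptor of B cells and activated microglia, rose from 0.35 and 0.14 to 27.2 and 20.4 CPM (logFC = 6.17 ± 0.72, adjusted p = 0.0028); it overlaps *Tesk1* on the other strand. *Cd52*, a small glycoprotein of leukocytes, was at 2.83 and 2.11 CPM before SE, 2.66 and 2.47 CPM at 6 h and 53.2 and 47.7 CPM at 2 days. The 6-h and pre-SE mice were close together, and both 2-day mice stood far above them (logFC = 4.25 ± 0.35, adjusted p = 0.0017). The complement chains *C1qa*, *C1qb* and *C1qc*, which tag debris and synapses, rose together, *C1qa* from 45.9 and 60.8 to 276 and 408 CPM (logFC = 2.66 ± 0.35, adjusted p = 0.0044), and the activating Fc receptors *Fcgr1* and *Fcgr4* from 4.04 and 2.6 to 54.1 and 46.4 CPM (logFC = 3.91 ± 0.42, adjusted p = 0.0024) and from 0.45 and 0.41 to 8.31 and 9.55 CPM (logFC = 4.09 ± 0.66, adjusted p = 0.009). *Cst7*, cystatin F, an inhibitor of lysosomal cathepsins, rose from 0.32 and 0.07 to 7.5 and 8.31 CPM (logFC = 4.90 ± 0.72, adjusted p = 0.0061). *Trem2*, a lipid-sensing receptor, rose from 7.76 and 3.01 to 32.7 and 49.3 CPM (logFC = 3.03 ± 0.48, adjusted p = 0.0083). *Spp1*, osteopontin, reached 76 and 628 CPM at 2 days from 21 and 17.9 CPM at 6 h and, with mice so far apart, was not called (logFC = 3.48 ± 1.11, adjusted p = 0.12). With a mouse left out, 7 to 12 of the 18 calls remained, and 7 in every case.

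Few markers of blood cells were measured, and they were low at both times. Of the 6 blood leukocyte genes tested, *Plac8*, a gene of monocytes and other leukocytes, rose from 0.06 and 0.41 to 5.05 and 2.24 CPM (logFC = 3.60 ± 0.62, adjusted p = 0.012), and *Mpo*, the neutrophil granule enzyme, fell from 3.4 and 1.16 to 0.08 and 0.24 CPM (logFC = -3.09 ± 0.72, adjusted p = 0.041). Both calls rested on levels of a few CPM; that of *Mpo* was lost without any one of the 4 mice (adjusted p = 0.068 to 0.22), and that of *Plac8* without SE 6 h mouse 1 or SE 2 days mouse 1. The neutrophil genes *S100a8* and *S100a9* overlapped between the times, *S100a8* with 1.44 and 2.4 CPM at 6 h and 0.55 and 2.39 CPM at 2 days and *S100a9* with 1.86 and 2.67 and 0.55 and 2.24 CPM. The summed level of the list ran from 8.53 to 12.2 CPM in the 4 mice, above the 2.13 and 3.83 CPM before SE, and the list median against pre-SE was 1.36 at 6 h and 1.30 at 2 days. On the list, 20 of the 26 genes, T and B cell markers among them, were not analysed here. Of the 6 perivascular macrophage genes tested, 0 were called, against 4.25% of all genes tested.

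Some reactive astrocyte genes rose. Of 31 reactive astrocyte genes tested, 6 rose and 0 fell (19.4% higher, median logFC = 1.22). Their summed level was 453 and 437 CPM before SE, 1444 and 1497 CPM at 6 h and 4244 and 6791 CPM at 2 days. Against pre-SE the list median was 2.53 at 6 h and 3.87 at 2 days, so the list was already raised at 6 h. *Gfap*, the astrocyte intermediate filament, was at 246 and 230.2 CPM before SE, 394 and 783 CPM at 6 h and 2282 and 3642 CPM at 2 days. The groups did not overlap (logFC = 2.38 ± 0.36, adjusted p = 0.007), and the 2-day mean was 5.03 times the 6-h mean. *Vim*, vimentin, rose from 90.7 and 90.8 to 368 and 737 CPM (logFC = 2.52 ± 0.43, adjusted p = 0.011), *Cd44*, the hyaluronan receptor, from 14.6 and 11.5 to 85.3 and 159 CPM (logFC = 3.16 ± 0.66, adjusted p = 0.027), *S100a10*, a partner of annexin A2, from 40.2 and 39.7 to 178 and 384 CPM (logFC = 2.71 ± 0.52, adjusted p = 0.019), and *Serpina3n*, a protease inhibitor, from 68.2 and 87 to 347 and 312 CPM (logFC = 2.09 ± 0.45, adjusted p = 0.03). *Timp1*, an inhibitor of metalloproteinases, was at 14.8 and 13.8 CPM at 6 h and 59.6 and 232 CPM at 2 days, a large estimate that did not pass the test (logFC = 3.03 ± 0.84, adjusted p = 0.077). *Lcn2*, lipocalin 2, was already at 9.81 and 14.7 CPM at 6 h from 0.24 and 0.27 CPM before SE, and its 20.6 and 30.1 CPM at 2 days, though above both, did not pass the test (adjusted p = 0.52). Of 22 homeostatic astrocyte genes, *Aqp4*, the water channel of astrocytic endfeet, alone was called, rising from 38.2 and 37.3 to 89.1 and 125 CPM (logFC = 1.48 ± 0.29, adjusted p = 0.019), while the glutamate transporter *Slc1a2* was at 1217 and 1179 CPM and 786 and 809 CPM (logFC = -0.59 ± 0.25, adjusted p = 0.23). Of the 6 reactive calls, 1 to 3 remained with a mouse left out, and none in every case; the call of *Aqp4* was lost without any one mouse.

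Chemokines moved in both directions. Of 22 tested, 5 rose, 2 fell and 15 were not called (median logFC = 0.34), and none of the 7 calls remained without each mouse in turn. *Cxcl10*, the interferon-induced ligand of CXCR3, counted also among the reactive astrocyte genes, was at 0.66 and 0.83 CPM before SE, 2.02 and 1.03 CPM at 6 h and 166 and 41.2 CPM at 2 days. It rose without overlap (logFC = 5.74 ± 0.89, adjusted p = 0.0077), a call lost without SE 6 h mouse 2 (logFC = 5.29, adjusted p = 0.068) or SE 2 days mouse 1 (logFC = 4.74, adjusted p = 0.073), and overlaps *Art3* on the other strand. *Ccl12*, a monocyte chemoattractant, rose from 5.93 and 6.78 to 103 and 37.9 CPM (logFC = 3.28 ± 0.75, adjusted p = 0.039), and *Cxcl16*, a transmembrane chemokine and scavenger receptor, from 1.51 and 2.4 to 12.6 and 11.8 CPM (logFC = 2.61 ± 0.47, adjusted p = 0.014). *Ccl8* and *Cxcl13*, a B-cell attractant, rose from 0.06 and 0.41 to 2.42 and 1.15 CPM (logFC = 2.64 ± 0.60, adjusted p = 0.038) and from 0.03 and 0 to 2.67 and 0.53 CPM (logFC = 3.53 ± 0.67, adjusted p = 0.019). In the other direction, *Ccl24*, an eosinophil attractant, fell from 2.18 and 2.6 to 0.17 and 0 CPM (logFC = -3.92 ± 0.66, adjusted p = 0.01), and *Cxcl2*, a neutrophil attractant, from 1.92 and 3.56 to 0.42 and 0.29 CPM (logFC = -2.59 ± 0.51, adjusted p = 0.02). *Ccl3*, which was 0.28 and 0.02 CPM before SE, was at 35.4 and 14.7 CPM at 6 h and 13.8 and 5.21 CPM at 2 days and was not called (logFC = -1.42 ± 0.80, adjusted p = 0.35).

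None of the 14 listed cytokines and antagonists tested was called, with 0 higher and 0 lower (median logFC = 0.20), against 4.25% of all genes tested. Their median logFC against pre-SE was 1.90 at 6 h and 2.55 at 2 days. *Tnf* was at 3.72 and 2.81 CPM at 6 h and 4.62 and 2.39 CPM at 2 days, and *Il6* at 2.34 and 1.16 and 0.98 and 1.91 CPM, both overlapping between the times and above their 0.24 and 0.04 and 0 and 0 CPM before SE; these 2 were chosen after their values were seen. *Lif*, a gp130 cytokine that acts on astrocytes, was at 3.08 and 3.29 CPM at 6 h and 19.2 and 9.79 CPM at 2 days without passing the test (logFC = 2.07 ± 0.72, adjusted p = 0.15). *Clcf1*, another gp130 ligand, was at 2.95 and 3.63 and 13.7 and 19.6 CPM (logFC = 2.29 ± 0.93, adjusted p = 0.21).

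Among matrix genes, 3 of 26 rose: *Mmp19*, a metalloproteinase, from 0.77 and 1.23 to 6.95 and 9.46 CPM (logFC = 2.93 ± 0.59, adjusted p = 0.023), *Col1a2*, a chain of fibrillar collagen, from 1.99 and 1.85 to 10.2 and 12.8 CPM (logFC = 2.51 ± 0.56, adjusted p = 0.037), and *Sparc*, a matricellular protein that is also listed as microglial, from 77 and 85 to 154 and 246 CPM (logFC = 1.27 ± 0.27, adjusted p = 0.031). *Klk6*, a secreted serine protease of oligodendrocytes, belonged to no list and was among the 20 largest rises, from 0.35 and 0.89 to 13 and 33.5 CPM (logFC = 4.97 ± 0.74, adjusted p = 0.0066). Its call was lost without SE 6 h mouse 1 (adjusted p = 0.057) or SE 2 days mouse 2 (0.064), and each of the 3 matrix calls was lost without 3 or 4 of the mice taken out in turn.

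Lists that mark the other cells of the tissue held few or no calls. Over all genes tested, 3.14% were called higher and 1.11% lower, so lists of this size would hold few calls at that share. None of 23 neuronal genes, 12 of mature oligodendrocytes, 10 of their precursors, 12 of mural cells and fibroblasts and 2 of red blood cells was called, with median logFC values of -0.25, -0.79, -0.24, -0.10 and -1.17. The summed neuronal level was 14113 and 11277 CPM at 6 h and 9915 and 9017 CPM at 2 days. *Prox1*, a marker of dentate granule cells, was at 83.9 and 91.3 and 64.3 and 39.4 CPM (logFC = -0.80 ± 0.31, adjusted p = 0.19), and *Wfs1*, a marker of CA1 pyramidal cells, at 129 and 135 and 165 and 304 CPM (logFC = 0.76 ± 0.28, adjusted p = 0.16). Of 29 ribosomal protein genes, *Rpl10* alone was called (logFC = 0.88 ± 0.20, adjusted p = 0.04), though 25 had a positive estimate (median logFC = 0.40). Among 13 metallothionein and Nrf2 targets and 16 genes of cholesterol synthesis, 0 were called, with medians of -0.11 and 0.08.

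The 2 mice at 2 days differed in some genes, picked out here for that difference. Over all genes tested they were no further apart than other pairs. Their median absolute log2 difference was 0.31, against 0.316 to 0.376 in the other groups. Mouse 1 had the higher summed level of interferon-stimulated genes (1424 against 674 CPM), while mouse 2 had the higher level of several genes of active neurons, *Inhba* (47.7 and 499.9 CPM in mice 1 and 2), *Nptx2*, a pentraxin that clusters AMPA receptors (191 and 1318 CPM), *Trh*, thyrotropin-releasing hormone (8.44 and 118 CPM), and *Gal*. The median of the activity-regulated effector genes, expressed as log2 difference from the pre-SE mean, was 1.34 in mouse 1 and 2.45 in mouse 2, against 2.58 and 2.60 at 6 h. Without mouse 2, the median logFC of the activity-regulated transcription factors was -1.45 in place of -0.99. These genes were chosen after their values were seen, and no test compares 2 single mice.

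**Figure D4:**
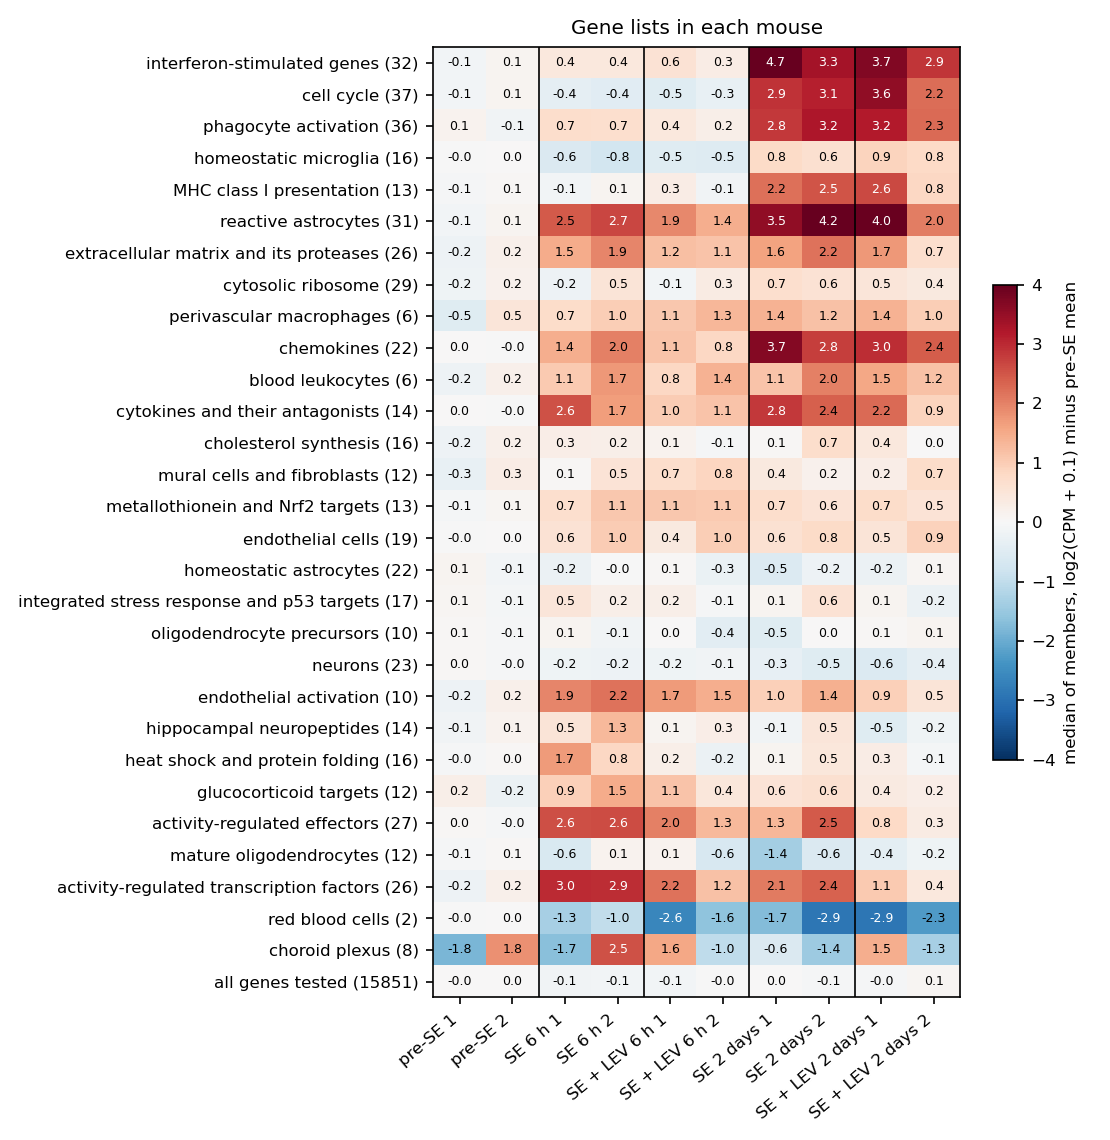
Median over the members of each list (number tested in brackets) of log2(CPM + 0.1) minus the mean of the 2 pre-SE mice, in each of the 10 mice; red, above pre-SE; blue, below. Interferon-stimulated and cell cycle genes are below 1 in all 4 mice at 6 h and above 2 in all 4 mice at 2 days. The choroid plexus row has opposite signs in the 2 mice of each group except SE 2 days, where both are below pre-SE (-0.57 and -1.44).

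The same genes were then read in the 4 mice given LEV, which share no animal with the groups compared above. These 4 mice did enter the fit, so their spread is part of the error behind the calls without LEV. Genes whose LEV mice agreed were thus easier to call, and the shares below are not an independent reading. Of the 498 genes called higher without LEV, 496 (99.6%) had a positive logFC between SE + LEV 6 h and SE + LEV 2 days, against 57.6% of all genes tested. Both LEV mice at 2 days were above both at 6 h for 472 of them (background 26.6%), and 266 were called higher (background 2.06%). Of the 176 genes called lower, 165 (93.8%) had a negative logFC (background 42.3%), 119 did not overlap between the LEV groups in that direction (background 14.6%), and 4 were called lower (background 0.0757%). The median logFC with LEV was 2.13 over the genes called higher and -0.67 over those called lower. These genes were picked by their change in mice without LEV, so smaller values with LEV are partly built in. In the test of whether the shift itself differed with LEV, limma called 0 genes, with a smallest adjusted p of 0.62; an unadjusted p under 0.05 was reached by 251 genes whose shift was higher under LEV (1.58%) and 126 whose shift was lower (0.795%).

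Named genes followed that division. *Isg15* went from 3.59 and 4.46 CPM at 6 h to 84 and 50 CPM at 2 days with LEV (logFC = 3.98, against 5.38 without), *Mki67* from 0.47 and 0.09 to 7.16 and 5.38 CPM (4.26 against 5.25) and *Gfap* from 519.9 and 473 to 3071 and 2312 CPM (2.43 against 2.38). For several named genes that faded, the level at 6 h was lower with LEV than without. Fading genes were picked partly for high levels in the SE 6 h mice, so lower levels in other mice are partly built in. *Chrne* was at 0.47 and 0 CPM at 6 h with LEV, against 16.4 and 16.9 CPM without. *Hspa1a* was at 63.3 and 32.7 CPM with LEV, against 10861 and 1278 CPM without, and *Crh* at 5.62 and 5.12 CPM, against 46.3 and 69.2 CPM. *Dio2*, *Maff* and *Klf4* did fall with LEV, from 207 and 128 to 22.1 and 52.2 CPM (adjusted p = 0.031), from 42.7 and 15.2 to 6.08 and 4.56 CPM (0.042) and from 20.1 and 14 to 3.91 and 6.2 CPM (0.045). None of these genes passed the test of a different shift.

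**Figure D5:**
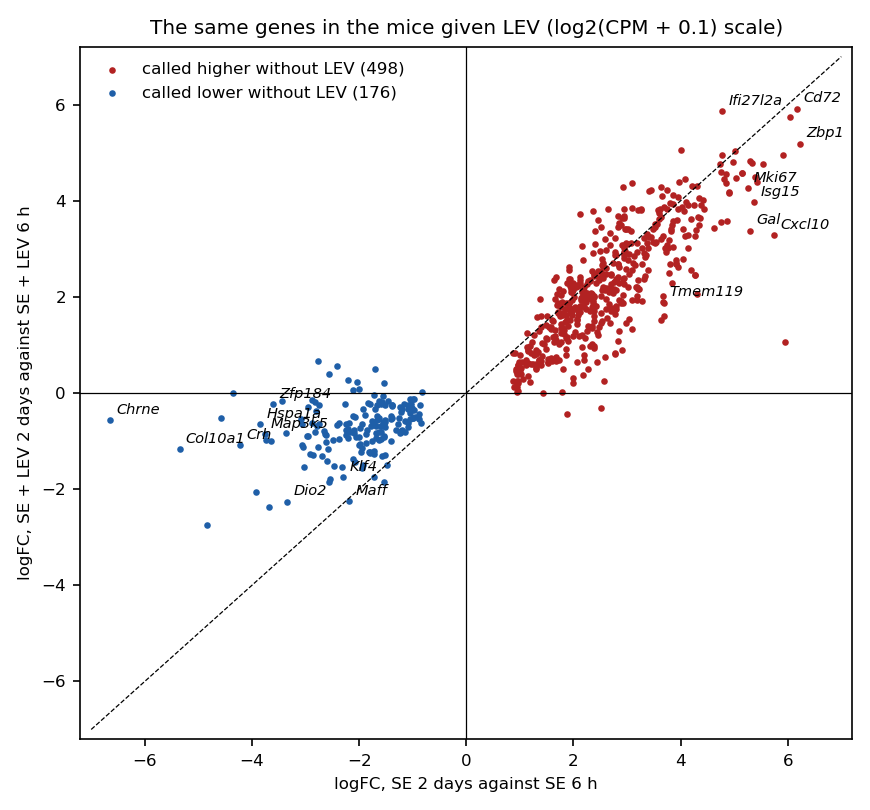
logFC of 2 days against 6 h without LEV (x axis) and with LEV (y axis) for the 498 genes called higher (red) and the 176 called lower (blue) without LEV; the dashed line marks equal values. Red points lie near the line, with a median of 2.13 with LEV, and most blue points lie between the line and 0, with a median of -0.67.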

How the data were processed

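CAGE libraries of the hippocampus were made by cap trapping with random-primed cDNA, 2 per group. Per the study's methods, the authors aligned tags to mm9 with BWA 0.7.17 and the remainder with HISAT2 2.0.5, called clusters with RECLU, dropped clusters under 0.1 CPM and those not reproduced between replicates, and used edgeR 3.22.5 for their own calls. The deposited values are CPM per gene, rounded to 2 decimals, made by the authors; the step from clusters to genes is not given in the sources used here. Read counts were not used, and tag totals were estimated from the smallest steps of the CPM values, only to state a limit of 3 tags.

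The 15851 genes that reached 0.1 CPM in 2 or more libraries were tested on log2(CPM + 0.1) with limma 3.58.1 in R 4.3.3. All 10 libraries entered, with 5 group means and a mean-variance trend; tests were two-sided, Benjamini-Hochberg adjusted over all genes tested, and called at 0.05. Fold changes on this scale understate the change of low genes. The labels number the replicates without stating that they are separate animals (the methods give 2 mice a group), so p-values measure the spread between these samples. Named genes came from the 20 largest called changes in each direction (groups not overlapping, mean of at least 1 CPM in the higher group, predicted genes and RIKEN clones not named), the called members of each list with up to 4 members not called, and defining cell type markers; others are said to have been chosen after their values were seen, and a few members are counted but not reported here by name. The members and lists were chosen with earlier results of these data known, so no list has a p-value. Gene positions are from the mm9 annotation, and promoters from RefSeq (GRCm38.p6), matched by symbol for 10085 of 15680 symbols. On simulated data with 15811 genes for this comparison, 51.5%, 89.8% and 100% of genes changed by 1, 2 and 3 log2 units were called, with 14 false calls. The changed genes all had a mean of at least 1 CPM, and each gene's spread was set by its level alone. The shares therefore do not cover lower genes or genes that vary more between mice. Alternatives changed the pseudocount, filter, scaling, trend, samples and replicate block, and left out each mouse.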

Additional observations from a re-analysis of the deposited data

How the results depend on the processing

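The counts of 498 genes higher and 176 lower rest on all 4 mice, since 116 to 147 and 42 to 46 genes were called with 1 mouse left out: without SE 2 days replicate 2 (116 and 44), SE 6 h replicate 1 (133 and 43), SE 2 days replicate 1 (136 and 46) and SE 6 h replicate 2 (147 and 42). These fits leave a group with 1 mouse, which is assumed to vary like the other groups, and have fewer samples. No gene called with all mice changed sign under any alternative run. The other settings gave 387 to 560 genes higher and 136 to 218 lower. Median-of-ratios rescaling moved the median logFC of all genes from 0.09 to -0.01 and gave 387 higher and 218 lower, 64% higher in place of 73.9%. Of 157 named genes that were called, 121 were called under every alternative that keeps all mice, and 45 also without each mouse. The 0 genes with a shift that differed with LEV became 1 with a pseudocount of 0.5 (*Chrne*), 2 with a pseudocount of 1 (*Zfp184* and *Chrne*) and 2 without the mean-variance trend (*Zfp184* and *Acot5*); the cause was not tested. Same-numbered mice at 6 h and 2 days did not deviate together over all genes tested (correlation of -0.019). With 2 mice a group, this cannot exclude a factor that same-numbered mice share in some genes. With the replicate block, 413 genes were higher and 136 lower. Counting entries with identical values once, chosen after seeing the data, gave 494 and 174. Tests on tag counts with edgeR or DESeq2 were not run, since the CPM are rounded to 2 decimals and tag totals could only be estimated. A gene near 3 tags, 0.096 to 0.206 CPM, is not separable from 0 at this depth.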

Other observations

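The gene families below were chosen after their values were seen. Of 59 histone cluster genes tested, which supply histones during DNA replication, 24 rose (40.7%, against 3.14% of all genes) and 1 fell between 6 h and 2 days without LEV (median logFC = 1.81), and 18 were called higher with LEV. *Hist1h3c* had the same logFC values as the predicted gene Gm11336, 5.15 without and 4.58 with LEV. Tags can thus be shared between such entries, and the 24 may not be separate. *Hist1h2ah* rose from 2.31 and 3.08 to 60.5 and 105 CPM (logFC = 4.85 ± 0.63, adjusted p = 0.0038). *Hist1h2be*, the exception, had a logFC of -1.60. Of 151 small nucleolar RNA entries, a class that includes guides of ribosomal RNA modification, 5 rose (3.31%, against 3.14% of all genes). Another 10 fell (6.62%, against 1.11%), and the median logFC was -0.08. Of the 10, 4 were copies of SNORD113, whose tags can be shared between copies. SNORD27 and SNORD77, also among the 10, overlap the longer RNAs *Snhg1* (logFC = -1.51, called lower) and *Gas5* (logFC = -0.32, not called) on the same strand. Whether their tags come from the small or the longer RNA was not tested.

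Further genes that fell, chosen after their values were seen, belong to no list. *Zdbf2* went from 121 and 121 to 17.5 and 23.1 CPM (logFC = -2.58 ± 0.28, adjusted p = 0.0026), *Magel2* from 7.67 and 5.89 to 1.1 and 0.72 CPM (logFC = -2.78 ± 0.37, adjusted p = 0.0045), *Mest* from 155 and 189.6 to 37.1 and 61.1 CPM (logFC = -1.85 ± 0.31, adjusted p = 0.01) and the long noncoding RNA *Meg3* from 816 and 521 to 229 and 268 CPM (logFC = -1.40 ± 0.30, adjusted p = 0.032). *Magoh*, a core protein of the exon junction complex, fell from 354 and 315 to 73 and 106 CPM (logFC = -1.92 ± 0.23, adjusted p = 0.0031). *Ppargc1a*, the coactivator of mitochondrial biogenesis, fell from 21.6 and 20.8 to 4.41 and 5.54 CPM (logFC = -2.08 ± 0.40, adjusted p = 0.019).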
